A study of Homo sapiens with 23 samples.

Results

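The replication-dependent histone genes of the HIST1 clusters on chromosome 6 and the HIST2 cluster on chromosome 1 were examined as binding regions of LSD1, its neuronal splice isoform LSD1+8a and supervillin (SVIL). Members are the peaks that overlap 4 stretches of the hg19 build, called windows here: chr6:26000000-26300000, chr6:27080000-27120000, chr6:27770000-27870000 and chr1:149780000-149870000. They hold 144 of the 52708 peaks in 5 deposited peak lists. The windows follow the positions of the genes and not a measured value, and they were chosen with earlier results of these data known.

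The 5 lists come from ChIP-seq of SH-SY5Y, an established neuroblastoma cell line of human origin, matured towards neurons with retinoic acid followed by brain-derived neurotrophic factor (BDNF). All 5 groups carried an shRNA. LSD1 was precipitated from cells with control shRNA at day 0 of BDNF, from cells with LSD1+8a shRNA at day 0 (knockdown cells below), and from cells with control shRNA at day 3. LSD1+8a and SVIL were precipitated from cells with control shRNA at day 3. The labels describe retinoic acid at 10 µM for 4 days before BDNF at 50 ng/mL for 3 days. The series has 23 samples, 14 of ChIP and 9 of input, and 9 ChIP samples were not analysed here. Among them are all those for dimethylated lysine 9 of histone H3, and LSD1+8a in control cells at day 0. The others are LSD1+8a in cells with LSD1+8a shRNA at days 0 and 3, and SVIL in cells with SVIL shRNA at day 3. The LSD1+8a and SVIL peaks below were thus not set against cells in which their target was knocked down. There was 1 library per group. Differences between groups therefore carry no replicate error and were not tested. Ranges after a share or a number of window peaks are exact 95% intervals for counting error alone.

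Replication-dependent histone genes encode the linker histone H1 and the core histones H2A, H2B, H3 and H4. They are transcribed in S phase, when new DNA has to be packed into nucleosomes, and their mRNAs end in a stem-loop in place of a poly(A) tail. Their clusters gather in histone locus bodies, where the coactivator NPAT, a substrate of cyclin E and CDK2, acts on the promoters. LSD1 (KDM1A) removes methyl groups from lysines of histone H3 within corepressor complexes. LSD1+8a is a form of it made in neurons, and SVIL, an actin-binding protein, is named in the series design as a cofactor of LSD1+8a.

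The RefSeq gene table at hand (GRCh38.p14, another build than the peaks) was used for names and order only. It lists 64 protein-coding HIST1 and HIST2 genes in 4 runs of neighbours. On chromosome 6 they are, in order, 32 genes from H1-1 (HIST1H1A) to H4C8 (HIST1H4H), 5 genes from H2BC11 (HIST1H2BJ) to H2AC12 (HIST1H2AH), and 16 genes from H2BC13 (HIST1H2BL) to H2BC17 (HIST1H2BO). On chromosome 1 they are 11 genes from H2BC18 (HIST2H2BF) to H2AC21 (HIST2H2AB). The first run has 5 genes for H1, 4 for H2A, 8 for H2B, 7 for H3 and 8 for H4. Which gene start lies under which peak was not determined, since no annotation of hg19 was used here. For the same reason the factors that act on these genes, such as NPAT and the stem-loop binding protein SLBP, were not examined at their own loci.

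What these promoters look like is shown for 1 gene of each histone family, the one that comes first on chromosome 6 in the 4 runs among those with an entry, as the 150 bases before the gene's start (RefSeq, GRCh38.p14, each on the strand of its gene, 5′ to 3′). Capitals mark matches, on either strand, to the TATA box TATAAA, the CCAAT box CCAAT, the octamer ATTTGCAT and GGTCCG, the core of the H4 subtype element. None of these motifs contains another.
H1-1 (HIST1H1A, linker histone H1): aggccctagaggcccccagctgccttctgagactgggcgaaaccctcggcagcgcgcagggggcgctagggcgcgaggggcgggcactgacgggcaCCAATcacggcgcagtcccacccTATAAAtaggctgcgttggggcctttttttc
H2AC4 (HIST1H2AB, core histone H2A): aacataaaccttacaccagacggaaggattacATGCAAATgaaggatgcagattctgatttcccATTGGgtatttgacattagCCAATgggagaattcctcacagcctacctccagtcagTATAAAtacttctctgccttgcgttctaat
H2BC3 (HIST1H2BB, core histone H2B): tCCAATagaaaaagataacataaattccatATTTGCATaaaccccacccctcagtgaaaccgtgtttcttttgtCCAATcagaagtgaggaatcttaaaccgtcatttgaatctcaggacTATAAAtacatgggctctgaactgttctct
H3C1 (HIST1H3A, core histone H3): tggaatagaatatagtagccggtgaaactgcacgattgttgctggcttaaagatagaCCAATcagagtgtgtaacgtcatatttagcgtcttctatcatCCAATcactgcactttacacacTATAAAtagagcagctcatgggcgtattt
H4C2 (HIST1H4B, core histone H4): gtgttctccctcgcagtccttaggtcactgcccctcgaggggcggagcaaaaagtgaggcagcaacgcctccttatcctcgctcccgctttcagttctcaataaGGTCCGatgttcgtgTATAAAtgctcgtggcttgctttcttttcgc

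In each of the 5 sequences a TATAAA begins 29 to 31 bases before the start. Of the 64 genes, 59 had a promoter entry, and the 250 bases before their start were searched on both strands. TATAAA was found in 39 of 59 (66.1%), against 10.7% of all 35116 promoters of the table. CCAAT was found in 47 of the 47 promoters for H1, H2A, H2B and H3 and in 3 of 12 for H4, against 32% of all promoters. The octamer was found in 13 of 16 promoters for H2B, 10 of 14 for H2A, 1 of 11 for H3 and in no promoter for H1 or H4, against 1.63% of all. GGTCCG was found in 11 of 12 promoters for H4 and in 3 of the other 47, against 9.43% of all. The families thus differ in these letters, but the promoters are not all separate stretches of DNA. As given below, 19 of the 59 overlap another, many of them an H2A beside an H2B promoter, and 12 share copied bases. With both strands searched, a match in shared bases was counted for each gene, so the H2A and H2B counts are partly of the same DNA. A match is a description of the sequence, not a binding site.

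Many of the genes lie close enough to share a promoter. In 19 of the 59, the stretch from 250 bases before to 50 after the start overlaps that of another histone gene, as for the pairs H2BC4 and H2AC6, H2BC8 and H2AC8, H2BC11 and H2AC11, and H2BC21 and H2AC20, each an H2B gene beside an H2A gene. In 12 promoters at least 1 stretch of 50 bases, the length of the reads, also occurs in a histone promoter elsewhere. These are 6 of 11 on chromosome 1 (H2AC18 and H2AC19, H3C14 and H3C15, H4C14 and H4C15), 6 of 14 in the third run of chromosome 6, and none of 30 and of 4 in the first and second. The sources used here do not say how reads matching more than 1 place were treated.

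All 5 lists were denser in the windows than over the genome. LSD1 had 41 peaks there in control cells at day 0 (29.4 to 55.6), 28 in knockdown cells (18.6 to 40.5) and 44 in control cells at day 3 (31.97 to 59.1). LSD1+8a had 15 (8.40 to 24.7) and SVIL had 16 (9.15 to 25.98). Per Mb of the windows this was 77.4, 52.8, 83.02, 28.3 and 30.2 peaks in this order, against 5.55, 3.37, 6.82, 1.11 and 0.477 over the stretch of the genome that the peaks span. The windows held 1.10% of all SVIL peaks, 0.444% of all LSD1+8a peaks, and 0.243%, 0.273% and 0.212% of the LSD1 peaks of control day 0, knockdown day 0 and control day 3. The ratio of densities was 63.2 for SVIL, 25.5 for LSD1+8a and 12.2 to 15.7 for the LSD1 lists. This order follows list length, with the shortest list first. With 1452 peaks taken from every list, the windows held 20 peaks of LSD1 at day 3, 16 of SVIL, 10 of LSD1 in control cells at day 0, 9 of LSD1+8a and 4 of LSD1 in knockdown cells.

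The first chromosome 6 window held 83 of the 144 peaks (57.6%) and makes up 56.6% of the summed window length. It had 23 and 19 LSD1 peaks in control and knockdown cells at day 0, 22 at day 3, 9 for LSD1+8a and 10 for SVIL. The second window, with the run of 5 genes, held 4, 3, 5, 2 and 2 peaks. The third held 13, 5, 13, 4 and 3 peaks. Per Mb, LSD1 of control cells at day 0 had 76.7 peaks (48.6 to 115.04) in the first window and 130 (69.2 to 222.3) in the third, and at day 3 it had 73.3 (45.96 to 111.03) and 130, with intervals that overlap. On chromosome 1, where 6 of 11 promoters have a near-identical copy, there were 1, 1 and 4 LSD1 peaks, no LSD1+8a peak and 1 SVIL peak. The part of repeated sequence in this low number was not tested.

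**Figure D1:**
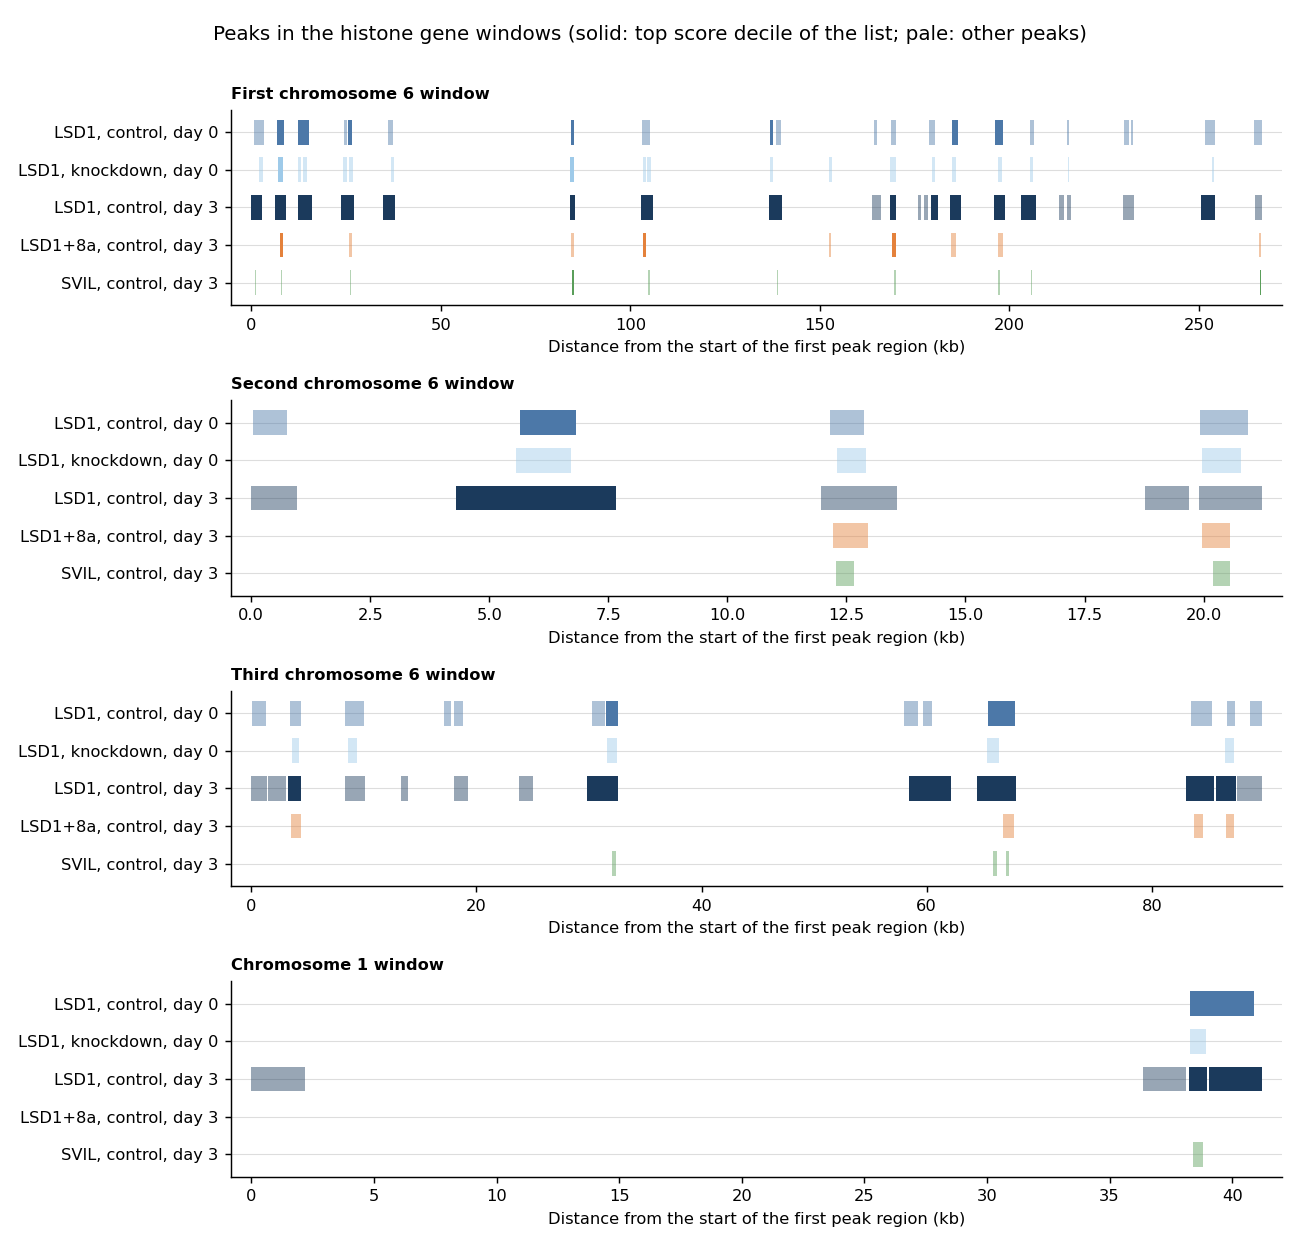
Peaks of each list (rows) along the 4 windows, by distance in kb from the start of the first peak region of each window. Solid bars are peaks in the top 10% of their list by score by score and pale bars are the others. LSD1 of control cells at day 3 has 14 solid bars in the first chromosome 6 window, and the bars of the other lists mostly stand at its bars.

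The deposited lists give a score for each peak, whose unit is not stated, and peaks were ranked by it within their own list. LSD1 peaks of control cells at day 3 ranked high in the windows. Of the 44, 23 (52.3%, 36.7 to 67.5) were in the top 10% of their list by score, where the whole list has 10.0%, and 10 were in the top 1%. The median window peak stood at 8.72% of the list, counted from the highest score. In control cells at day 0, 11 of 41 (26.8%, 14.2 to 42.9) were in the top 10%, against 10.0% of the list, with 3 in the top 1% and a median at 16.2%.

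In the other 3 lists the share in the top 10% lay nearer that of the whole list. In knockdown cells 2 of 28 (7.14%, 0.877 to 23.5) were in the top 10%, against 9.99% of the list, with the median at 44.9%. For LSD1+8a these were 3 of 15 (20%, 4.33 to 48.1), against 9.98%, with the median at 39.2%. For SVIL they were 2 of 16 (12.5%, 1.55 to 38.3), against 9.99%, with the median at 19.1%. These 3 shares of the top 10% include that of the whole list in their intervals. In the lower 50% of the list stood 13 of 28 window peaks in knockdown cells, 6 of 15 for LSD1+8a and 2 of 16 for SVIL. For LSD1 of control cells these were 10 of 41 at day 0 and 7 of 44 at day 3. Lists of different lengths reach down to different depths, so these ranks do not measure a change between conditions.

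**Figure D2:**
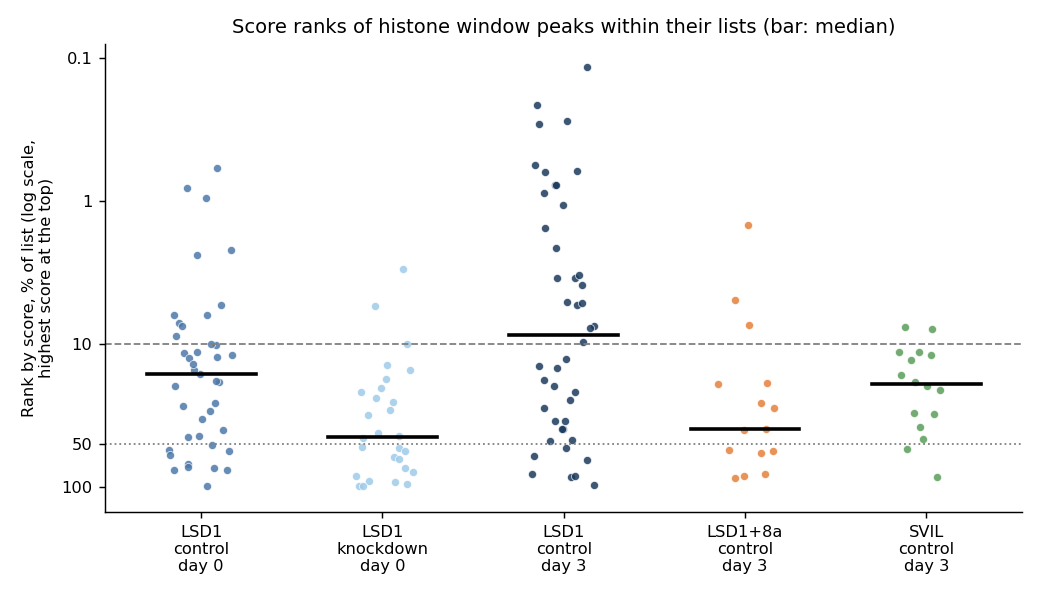
Rank by score of each window peak, as percent of its list on a log axis with the highest score at the top, for the 5 lists. Bars are medians, the dashed line marks 10% and the dotted line 50%. The median of LSD1 in control cells at day 3 lies above the dashed line at 8.72%, and that of knockdown cells near the dotted line at 44.9%.

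LSD1 peaks of control cells were long in the windows. At day 3 the median was 1901.5 bp (562 to 3908), against 1044 bp for the list, and 38 of 44 were longer than the list's median. At day 0 it was 1147 bp (478 to 3006), against 834.5 bp, with 29 of 41 longer. In the other lists the window median differed less from that of the list. It was 872.5 bp against 769 bp in knockdown cells, with 21 of 28 peaks longer than the list's median. For SVIL it was 361 bp against 314 bp, with 12 of 16 longer, and for LSD1+8a 769 bp against 831 bp, with 5 of 15 longer. Peaks of LSD1 at day 3 covered 92.6 kb, or 17.5% of the windows, and those of day 0 covered 54.02 kb in control and 25.3 kb in knockdown cells. LSD1+8a covered 12.5 kb and SVIL 5.85 kb. A single day 3 peak spanned 2 or more control day 0 peaks in 6 of 44 cases (13.6%), where 0.901% of the whole list spanned 2 or more.

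**Figure D3:**
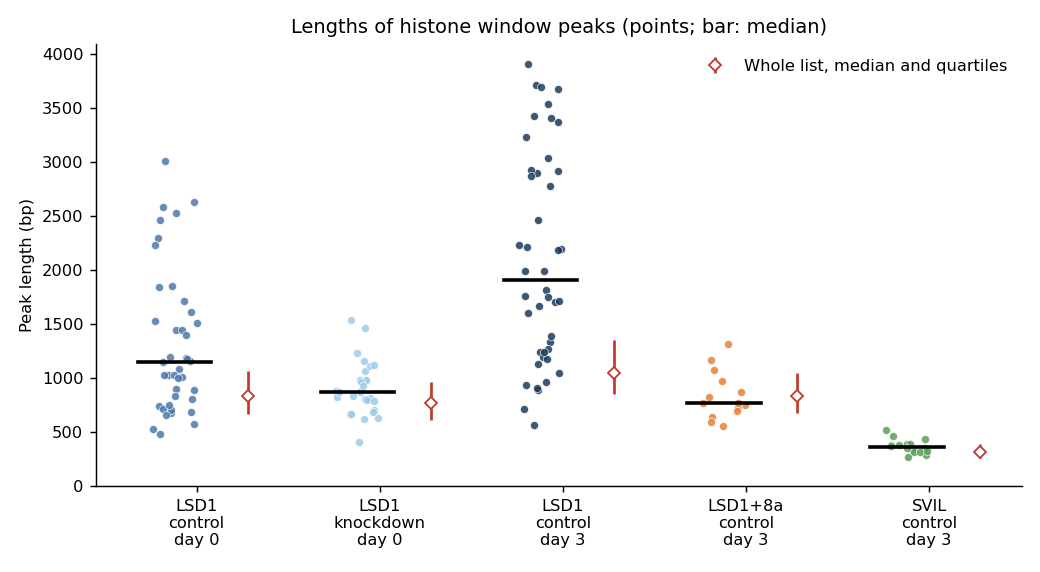
Length in bp of each window peak (points, with the median as a bar) beside the median and quartiles of the whole list (diamond and line) for the 5 lists. Points of LSD1 in control cells at day 3 reach 3908 bp, and SVIL points stay between 270 and 516 bp.

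The number of reads per peak (tags) is not scaled to library size and is given here only to show the data behind each call. In the windows it ranged from 13 to 128 (median 44) in the control day 0 list of LSD1 and from 10 to 72 (median 32) in knockdown cells. It ranged from 20 to 295 (median 112.5) at day 3, from 23 to 81 (median 44) for LSD1+8a and from 16 to 34 (median 24.5) for SVIL. The list medians were 26, 28, 50, 38 and 20 tags. The authors' fold enrichment had a window median of 24.6 for LSD1 at day 3, against 17.05 for the list, and of 23.4 for SVIL, against 18.2. It was 10.99 against 9.30 at day 0 in control cells, 9.31 against 9.13 in knockdown cells and 15.9 against 15.2 for LSD1+8a.

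Merged across lists, the window peaks formed 45 regions of 562 to 4112 bp (median 1817). LSD1 at day 3 was listed in 43 of them, LSD1 of control cells at day 0 in 35, LSD1 of knockdown cells in 25, and LSD1+8a and SVIL in 15 each. All 5 lists met in 9 of the 45 regions (20%), where 139 of 32188 regions of the series (0.432%) did so, and 18 (40%) lay in at least 4 lists, against 3.95%. Only 10 (22.2%) lay in a single list, against 57.6%, and 9 of these 10 were LSD1 at day 3, against 58.2% of the single-list regions of the series. In each of the 9 regions of all 5 lists, the longest peak was that of LSD1 at day 3, as in 100 of the 139 such regions of the series (71.9%). Of the LSD1 day 3 peaks in regions of 4 or 5 lists, 16 of 19 (84.2%) were in the top 10% of their list by score, against 416 of 1261 in such regions over the series. Of the others, 7 of 25 (28%) were, against 8.51%. Peaks lay denser in the windows than over the genome, and those of LSD1 in control cells were longer, so peaks meet and merge more easily there. The part of this in the number of lists per region was not tested.

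Of the 9 regions in all lists, 6 lie in the first chromosome 6 window. At chr6:26025840-26028765, LSD1 had 104 tags in control cells at day 0 (rank 898), 72 in knockdown cells (rank 306) and 295 at day 3 (rank 117), and LSD1+8a had 81 (rank 166) and SVIL 25 (rank 442). At chr6:26103732-26104972, LSD1 had 57 (rank 1209), 43 (rank 558) and 151 tags (rank 130) in the same order, LSD1+8a had 45 (rank 644) and SVIL 34 (rank 115). At chr6:26187975-26189691 these were 68 (rank 1942), 53 (rank 1028), 166 (rank 222), 67 (rank 251) and 27 tags (rank 167). These 3 regions are compact: the summits of all 5 lists lay within 177 bp in the first and within 95 bp in the other two.

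The region at chr6:26215411-26218324 had 104 tags at day 0 in control cells (rank 137), 60 in knockdown cells (rank 2473), 256 at day 3 (rank 57), 59 for LSD1+8a (rank 951) and 31 for SVIL (rank 307). At chr6:26043167-26046701, LSD1 at day 3 had a single peak of 236 tags (rank 44), and the day 0 lists each had a pair of peaks there. These pairs had 38 and 53 tags in control cells (ranks 3343 and 403) and 30 and 36 in knockdown cells (ranks 9846 and 8562). LSD1+8a (30 tags, rank 1344) and SVIL (21 tags, rank 451) stood at the second position of the pair.

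The region at chr6:26122415-26125451 held the best ranked window peaks of LSD1 at day 3 (253 tags, fold enrichment 57.2, rank 24 of 20748) and of LSD1+8a (72 tags, fold enrichment 64.8, rank 50 of 3378). Their summits, at 26123315 and 26123318, were 3 bp apart. SVIL (24 tags, rank 239) had its summit 1135 bp from that of LSD1+8a, at 26124453, and 13 bp from that of LSD1 in control cells at day 0 (95 tags, rank 1725). Knockdown cells had a peak at each position, with 35 tags in both (ranks 2102 and 10137). LSD1+8a and SVIL thus shared this region without overlapping.

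The remaining 3 regions of all lists are in the second window and in the third. At chr6:27106516-27108117, LSD1 had 25 tags at day 0 in control (rank 7492) and 22 in knockdown cells (rank 6537) and 84 at day 3 (rank 5836), LSD1+8a had 38 (rank 1962) and SVIL 23 (rank 286). At chr6:27114463-27115793 these were 42 (rank 3106), 36 (rank 1446), 92 (rank 2988), 23 (rank 2741) and 23 tags (rank 555). Neither region was in the top 10% of any list. At chr6:27838543-27841964, LSD1 had its best ranked day 0 peak of the windows in control cells (128 tags, rank 99 of 16882) and a day 3 peak of 257 tags (rank 161), and knockdown cells had 46 tags (rank 2224). SVIL had a pair of peaks there, of 23 and 18 tags (ranks 270 and 794), with summits 1027 bp apart. The first lay 39 bp from the LSD1 summit of day 3 and the second 3 bp from that of control cells at day 0. LSD1+8a (51 tags, rank 1858) had its summit 90 bp from the second.

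A further 9 regions lay in 4 lists. LSD1+8a was the missing list in 5 of them, SVIL in 3 and LSD1 of knockdown cells in 1. That last region, chr6:26284018-26286218, had day 0 peaks of 14 and 63 tags in control cells (ranks 11777 and 2137), 114 tags at day 3 (rank 4504), 44 for LSD1+8a (rank 639) and 32 for SVIL (rank 110), the best ranked SVIL peak of the windows. The regions without LSD1+8a had day 3 LSD1 peaks at ranks from 60 to 2007, all in the top 10% of that list. Among them were chr6:26156062-26159471 with 256 tags (rank 60), chr6:26222700-26226607 with 264 (rank 128) and chr6:26019517-26022835 with 181 (rank 2007).

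In those 3 regions without LSD1+8a, SVIL had 19 (rank 676), 27 (rank 167) and 27 tags (rank 174). At day 0, control cells had 33 and 51 (ranks 1484 and 2583), 48 (rank 1701) and 86 tags (rank 1972), and knockdown cells had 29 (rank 9518), 26 (rank 2997) and 24 (rank 6310). In the first and the last of them, the knockdown peak stood apart from the SVIL peak. Its summit lay 1805 and 1443 bp from that of SVIL, while a control day 0 summit lay within 31 and 35 bp of it.

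The other regions that lacked LSD1+8a were chr6:27803864-27806636 and chr1:149857987-149860966. In the former, LSD1 had 29 and 54 tags in control cells at day 0 (ranks 9546 and 1259), 34 in knockdown cells (rank 5778) and 173 at day 3 (rank 682), and SVIL had 16 (rank 1245). In the latter, the single region of the chromosome 1 window outside the day 3 list alone, LSD1 had 101 tags at day 0 in control (rank 1060) and 31 in knockdown cells (rank 2608), peaks of 95 and 149 tags at day 3 (ranks 1556 and 803), and SVIL had 31 (rank 190). Control day 0 and SVIL summits lay 2 bp apart there.

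The 3 regions that lacked SVIL had LSD1+8a peaks outside the top 10% of their list. At chr6:26203965-26206830, LSD1 had 84 tags in control cells at day 0 (rank 372), 48 in knockdown cells (rank 1817) and 242 at day 3 (rank 320), and LSD1+8a had 69 (rank 883). At chr6:27777328-27778504 these were 39 (rank 4349), 28 (rank 1561), 82 (rank 1083) and 30 tags (rank 1323). At chr6:27859773-27861488 they were 32 (rank 4592), 25 (rank 8048), 119 (rank 724) and 25 tags (rank 2941).

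Beside those named, the 3 highest scoring window peaks of a list included, for LSD1 of control cells at day 0, the peak at chr6:26031818-26034823 (124 tags, rank 162). It belongs to a region of the 3 LSD1 lists (252 tags and rank 162 at day 3) in which neither LSD1+8a nor SVIL was listed.

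The first comparison set LSD1 in control cells at day 0 against day 3 of BDNF. Nearly all day 0 peaks of the histone windows were listed at day 3 as well. Of the 41, 40 (97.6%, 87.1 to 99.9) overlapped a day 3 peak by at least 1 bp, against 50.1% of the whole day 0 list. Conversely, 35 of the 44 day 3 peaks had a day 0 overlap (79.5%, 64.7 to 90.2), against 40.1%. Day 3 LSD1 peaks covered 17.5% of the windows, and all lists were denser there than over the genome. An overlap of 1 bp therefore comes more easily in the windows, in this and the later comparisons, and the part of this in the shares was not tested. Within the top 10% of the day 3 list, 23 of 23 window peaks (85.2 to 100%) were shared, against 74.0% of that 10%, and below it 12 of 21 (57.1%, 34.02 to 78.2), against 36.3%. The day 0 peak without a day 3 overlap, chr6:27791163-27791818, had 14 tags (rank 12876).

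The 9 day 3 peaks without a day 0 overlap had 20 to 90 tags and ranks from 2650 to 20028. Of these, 3 were in the first window, 1 in the second, 3 in the third and 2 on chromosome 1. The best ranked were chr6:27775503-27777164 (76 tags, rank 2650) and chr6:27797806-27799045 (62 tags, rank 3705), which were in no other list. Between overlapping peaks the median summit distance was 68.5 bp, against 69 bp in the whole list. With a reciprocal overlap of 50% of both peaks, 22 of the 41 day 0 peaks (53.7%, 37.4 to 69.3) counted as shared. The list had 41.4%, which lies within that interval. In the same comparison the median lengths of the window peaks were 1147 bp at day 0 and 1901.5 bp at day 3. The titles of the 3 day 3 libraries carry no library number, unlike those of day 0, and the sources do not give the input behind each list. An input of control cells at day 3 is listed only in the set for dimethylated lysine 9 of histone H3. Control cells at day 0 have an input outside that set as well. Neither library titles nor inputs can therefore be told apart from the day.

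The second comparison set knockdown against control cells at day 0, both with LSD1. Control peaks were found at 27 of the 28 knockdown peaks (96.4%, 81.7 to 99.9), against 69.4% of the whole knockdown list. Knockdown peaks were found at 25 of the 41 control peaks (60.98%, 44.5 to 75.8), against 42.1%. All 11 control peaks of the top 10% were shared, against 89.6% of that 10%, and 14 of the 30 below it (46.7%, 28.3 to 65.7), against 36.9%. The 16 control peaks without a knockdown overlap had 14 to 63 tags and ranks from 2137 to 16772. With a reciprocal overlap of 50%, 60.7% of the knockdown peaks (40.6 to 78.5) were shared. The whole list had 64.5%, which lies within that interval, so the windows did not then stand above the list.

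These 16 peaks were 7 of 23 in the first window (30.4%, 13.2 to 52.9), 1 of 4 in the second and 8 of 13 in the third (61.5%, 31.6 to 86.1), and the peak on chromosome 1 was shared. In the whole control list 57.9% of peaks had no knockdown overlap, so the third window was near the list, and the intervals of the first and the third overlap. The strongest were chr6:26284696-26286218 (63 tags, rank 2137), chr6:26157915-26159360 (51 tags, rank 2583) and chr6:27857536-27859386 (62 tags, rank 3056). Each of the 3 overlapped a day 3 LSD1 peak. The knockdown peak without a control overlap, chr6:26171928-26172593, had 18 tags (rank 9283). With library depth not given in the sources, absence of control peaks from the shorter knockdown list cannot be told apart from lower depth.

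For the isoform, LSD1+8a peaks were compared with those of LSD1 at day 3. LSD1 was also listed at 14 of the 15 LSD1+8a peaks (93.3%, 68.1 to 99.8), against 59.6% of the whole LSD1+8a list. In return, 14 of the 44 LSD1 peaks had LSD1+8a (31.8%, 18.6 to 47.6), against 9.69%. In the top 10% of the LSD1 list these were 11 of 23 (47.8%, 26.8 to 69.4), against 26.8% of that 10%. The LSD1+8a peak without LSD1 at day 3, chr6:26171949-26172583, had 33 tags (rank 1912) and lay at the single knockdown peak that control cells lacked at day 0, with summits 42 bp apart.

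LSD1 peaks without LSD1+8a numbered 30 and reached rank 60. With a reciprocal overlap of 50%, 3 of the 15 LSD1+8a peaks (20%, 4.33 to 48.1) were shared, against 48.5% of the list. For LSD1+8a peaks the order of windows and list thus turned with this choice. In the other direction 6.82% of the LSD1 peaks (1.43 to 18.7) were shared, against 7.90%, which lies within that interval. The LSD1 peaks of the windows are long beside those of LSD1+8a, with medians of 1901.5 and 769 bp. Binding of the LSD1 antibody to the LSD1+8a isoform was not examined here.

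SVIL was then compared with LSD1+8a, its partner in the series design, at day 3. LSD1+8a was also listed at 9 of the 16 SVIL peaks (56.2%, 29.9 to 80.2), against 18.6% of the whole SVIL list. SVIL was also listed at 9 of the 15 LSD1+8a peaks (60%, 32.3 to 83.7), against 7.70%. The LSD1+8a peak of rank 50 was among the 6 without SVIL overlap. The 7 SVIL peaks without LSD1+8a had 16 to 31 tags. Counted by region, LSD1+8a and SVIL met in 10 of 45, LSD1+8a was listed without SVIL in 5 and SVIL without LSD1+8a in 5. Over the 32188 regions of the series these were 264, 3105 and 1157. With a reciprocal overlap of 50%, LSD1+8a was shared at 5 of the 16 SVIL peaks (31.2%), against 4.68% of the list, and SVIL at 5 of the 15 LSD1+8a peaks (33.3%), against 2.01%.

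SVIL was last compared with LSD1 at day 3. LSD1 was listed at all 16 SVIL peaks (79.4 to 100%), against 58.7% of the whole SVIL list, and SVIL was listed at 15 of the 44 LSD1 peaks (34.1%, 20.5 to 49.9), against 3.97%. These shares depend on the overlap required. With a reciprocal 50%, 1 of the 16 SVIL peaks (6.25%, 0.158 to 30.2) was shared, against 1.72% of the list. In return 1 of the 44 LSD1 peaks (2.27%, 0.0575 to 12.02) was, against 0.120%, and both intervals include the list. SVIL window peaks were 270 to 516 bp long. The LSD1 peaks at them were 1240 to 3908 bp long, apart from 1 of 714 bp. A peak shorter than 50% of the other cannot be shared under this rule, so it cannot decide how many such peaks are shared. With 1452 peaks from every list, 11 of the 16 SVIL peaks (68.8%) were shared, against 17.2%. Of the LSD1 peaks in the top 10% of their list by score 12 of 23 (52.2%, 30.6 to 73.2) were at SVIL, against 14.3% of that 10%. SVIL summits lay close to LSD1 summits. The median distance was 47.5 bp (11 to 1138), against 82 bp in the whole list, and 13 of 16 lay within 100 bp, against 57.6%. The strongest LSD1 peak of day 3 without SVIL overlap, at rank 162, was the peak in the region of the 3 LSD1 lists named above. The input libraries were not analysed, and places where any antibody gives signal were not filtered, so such signal cannot be told apart from binding in these overlaps. The LSD1 day 3 list enters 3 of the 5 comparisons and the control day 0, LSD1+8a and SVIL lists enter 2 each, so their shares are not independent of each other.

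**Figure D4:**
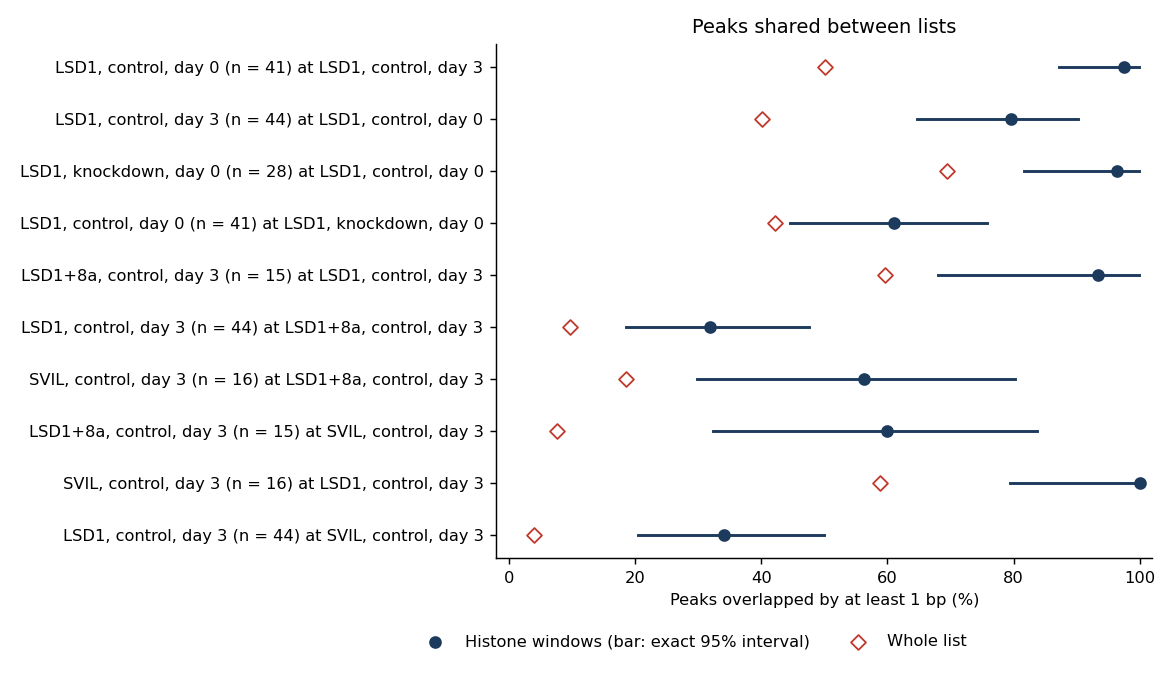
Percent of peaks of the first-named list that overlap a peak of the second by at least 1 bp, for histone window peaks (circles with exact 95% intervals) and for the whole list (diamonds). The circle lies to the right of the diamond in all 10 rows, and no interval reaches its diamond. The closest is control day 0 at knockdown day 0, at 44.5% against 42.1%. Peaks were denser in the windows than over the genome, which makes an overlap of 1 bp likelier there, and the part of this was not tested.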

How the data were processed

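Chromatin of SH-SY5Y cells was fixed in 1% formaldehyde, sonicated to 300 to 800 bp, selected at 300 to 600 bp after amplification and read as single ends of 50 bp, per the labels' protocols. The tools CASAVA and Bowtie 1.0.0 and the builds hg19 and mm9 are named, per the submitters' processing notes. As the cells are human, positions were taken to be hg19. Not given in the sources used here are the peak caller, its threshold and the reads per library. Each list covers a single ChIP library against input. Per the file headers, each deposited row gives tags (a whole-number count per peak, not normalized), a fold enrichment (a ratio by the authors' caller) and a score whose column name is lost.

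Peaks overlapping a window by at least 1 bp were kept, ranked by score within their list, and merged across lists where they overlapped by at least 1 bp. Shares have exact (Clopper-Pearson) and counts exact Poisson 95% intervals. Peaks per Mb of the genome used 3041.5 Mb, the sum of the last peak ends per chromosome. The functions were tested on simulated data. Regions in at least 4 lists and the 3 highest scoring window peaks of each list are named, and others were chosen after their values were seen. Runs of genes allow at most 8 other table entries between neighbours and have at least 3 genes. The members, windows and lists were chosen with earlier results of these data known. Alternatives were a reciprocal overlap of 50%, edges or merging within 1 kb, the upper 50% of scores, an equal number (1452) of peaks per list, the summit inside the window and, added after the data were seen, leaving out the chromosome 1 window. Python 3.11.15, pandas 2.3.3 and scipy 1.17.1 were used.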

Additional observations from a re-analysis of the deposited data

How the results depend on the processing

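No paired analysis was possible because each group is 1 library and the results come from no test. Of 79 values recomputed, 56 stayed within 1.5 times the count or within the interval of the share, among them all 13 with the summit inside the window, all 5 without the chromosome 1 window (an alternative chosen after seeing the data) and all 3 with merging within 1 kb. Keeping only peaks above the median score, the windows held 15 LSD1 peaks of knockdown cells and 9 of LSD1+8a. Then 5 regions lay in all 5 lists. Of the 14 SVIL window peaks kept, 0% were in the top 10% of the shortened list, a stricter cutoff than that of the full list. The SVIL window peaks in the top 10% of the full list, at ranks 110 and 115, were among those kept. The shared part was then 100% for control day 0 peaks at day 3 (31 of 31), against 38.6% of the list so cut. It was also 100% for knockdown peaks at control peaks (15 of 15), against 68.8%, and for LSD1+8a peaks at LSD1 (9 of 9), against 40.6%. Keeping 1452 peaks per list, the windows held 10, 4, 20 and 9 peaks of LSD1 control day 0, knockdown, control day 3 and LSD1+8a. SVIL peaks at LSD1 then came to 68.8%, against 17.2% of the list, and LSD1 peaks at SVIL to 50.0%, against 16.3%. With a reciprocal overlap of 50%, the shares were 53.7% of control day 0 peaks at day 3 and 50.0% in return, 60.7% of knockdown peaks at control peaks and 41.5% in return, 20% of LSD1+8a peaks at LSD1 and 6.82% in return, 6.25% of SVIL peaks at LSD1 and 2.27% in return, and 31.2% of SVIL peaks at LSD1+8a and 33.3% in return. Knockdown, LSD1+8a and LSD1 at LSD1+8a then lay below their whole lists, at 64.5%, 48.5% and 7.90%, and the others above. Why these values moved was not tested. A peak shorter than 50% of the other cannot count as shared under the reciprocal setting, as for most SVIL window peaks at LSD1. With edges at most 1 kb apart, the day 0 and day 3 shares were 100% and 90.9%, against 52.3% and 42.4% of the lists. Read depth, not given in the sources used here, limits every statement that a peak is missing from a list.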

Other observations

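The stretches of chromosome 6 between the windows were less dense in all 5 lists. Between the first and the second window LSD1 had 13 peaks at day 0 in control cells (16.7 per Mb, 8.87 to 28.5), 8 in knockdown cells (10.3 per Mb) and 10 at day 3 (12.8 per Mb), LSD1+8a had 3 and SVIL 1. Between the second and the third these were 10, 5, 7, 3 and 0 peaks. Over both stretches, 0 of 17 day 3 LSD1 peaks were in the top 10% of their list, against 23 of 44 in the windows. For control cells at day 0 these were 2 of 23, against 11 of 41, and for knockdown cells 2 of 13, against 2 of 28. The 100 kb before the first window and the 100 kb after the third held 3 and 1 day 3 LSD1 peaks and no peak of the other lists. Beside the chromosome 1 window the order differed in the day 0 lists only. The 100 kb after it held 3 LSD1 peaks of control cells at day 0 (30 per Mb, 6.19 to 87.7) and 2 of knockdown cells (20 per Mb, 2.42 to 72.2). The window had 11.1 per Mb (0.281 to 61.9) in both day 0 lists, so these intervals overlap. LSD1 at day 3 had 2 peaks in the 100 kb after it (20 per Mb), against 44.4 per Mb in the window. SVIL had 1 (10 per Mb), against 11.1 per Mb. In each LSD1 list 1 peak of the 100 kb after the window was in the top 10%, and the 100 kb before the window held no peak of any list.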
